A study of Rattus norvegicus with 44 samples.

Results

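Homeostatic microglia genes are the genes by which the resident macrophages of the brain are recognised while they survey intact tissue. The set described here holds 8 genes, Cx3cr1, Csf1r, P2ry12, P2ry13, Gpr34, Tmem119, Itgam and Aif1, which were taken by symbol from the deposited table of RNA levels in the dentate gyrus (DG) of rats. They make up 8 of the 18347 gene identifiers in that table. No measured value entered the choice of the symbols, although earlier results from these data were known when the set was drawn up. The question put to them was whether their RNA differed with age and with senolytic treatment, that is, treatment with drugs meant to remove senescent cells.

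The DG was taken from 1 hemisphere of each of 44 male F344 rats, and each rat gave 1 poly(A)-selected library. Young rats were 6 months old and received vehicle (YNG, n = 10). The older rats are labelled as 12 months old, their age when treatment began, and received vehicle (AV, n = 12), ABT-263 at 12 mg/kg (AA, n = 11) or dasatinib at 1.2 mg/kg with quercetin at 12 mg/kg (ADQ, n = 11) by oral gavage. Drug or vehicle was given on 5 days of each of 8 cycles before behavioral testing and once more before the tissue was collected, so that the tissue was older than the label says. The labels carry only the age, so treatments came from the deposited sample attributes, matched by the name of the rat.

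Microglia are long-lived macrophages that keep their number by dividing within the brain. Their survival depends on the receptor encoded by Csf1r, which binds the cytokines Csf1 and Il34, and their contact with neurons runs in part through Cx3cr1, whose ligand Cx3cl1 is made by neurons. The purinergic receptors P2ry12 and P2ry13 and the receptor Gpr34 sense nucleotides and lysophospholipids released in tissue, and RNA of several of these genes is known to drop when microglia leave the surveying state. In bulk tissue such as this, fewer microglia and less RNA in each of them cannot be told apart.

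Values are the deposited counts divided by a size factor for each library, called normalized values below. They are not corrected for gene length, so levels are compared between rats and never between genes. Reads per rat were estimated at 10166579 to 24328319. At that depth the 8 genes rested on 20 to 128 estimated reads per rat for P2ry13, the lowest of them, and on 918 to 3865 for Csf1r, the highest. Differences were tested two-sided with limma on log2(value + 1) in 1 fit of the 4 groups. A gene is called higher or lower where the unadjusted p is below 0.05, the threshold of the study, and the Benjamini-Hochberg adjusted p over the 15598 genes tested stands beside it. All 8 genes passed the filter, a mean of at least 5. By number the rats were split here into series a (6 YNG, 6 AV, 5 AA and 5 ADQ) and series b (4, 6, 6 and 6). The labels name no batch and no order in time. YNG rats have numbers of their own (V1 to V6 in a, V9 to V12 in b), so joining them to these series was an assumption. In series b the AV rats are numbered 4566 to 4572 and the treated rats 4031 to 4110, so AV shares no block of numbers with them.

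A few libraries stood apart. AV rat 3989 had the highest sum of red blood cell markers of all rats, at 94725 against group medians of 6413 to 12899, and also the highest AV sums of endothelial, oligodendrocyte, astrocyte and border macrophage markers. AV rat 4009 had the highest sums of T and NK cell markers (816) and of choroid plexus markers (1355). AA rat 4107 had the highest sum of CA1 neuron markers (42737 against group medians of 7319 to 10648), which are markers of a neighbouring hippocampal field. Counts of called genes, for the 8 genes and for other lists, are given with and without the first 2 of these rats, a choice made after the data were seen. Markers of granule neurons, the neurons of the DG, had group medians of 10214 to 12582 for their sum, and 5 of 6 passed the filter. Their lowest sum, 2855, was that of AA rat 4107, and the lowest in AV, 6326, that of rat 3989, which also had the highest AV sum of CA1 neuron markers (28330), so the label DG stood less clearly in these 2 rats.

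The 8 genes differed from group to group by less than 1.5-fold. Against YNG, AV rats had higher P2ry12, Itgam and Gpr34, and no member was lower. Against AV, AA rats had lower Cx3cr1, Csf1r, P2ry13, Gpr34 and Itgam, and ADQ rats had lower Cx3cr1, Csf1r, P2ry12, Tmem119 and Itgam. Called differences had sizes between 0.26 and 0.54 on the log2 scale, and none passed the adjusted threshold. AV had the highest group mean for 6 of the 8 genes, the exceptions being P2ry13 (highest in YNG) and Tmem119 (highest in AA). The groups overlapped for every gene and every pair of groups.

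**Figure D1:**
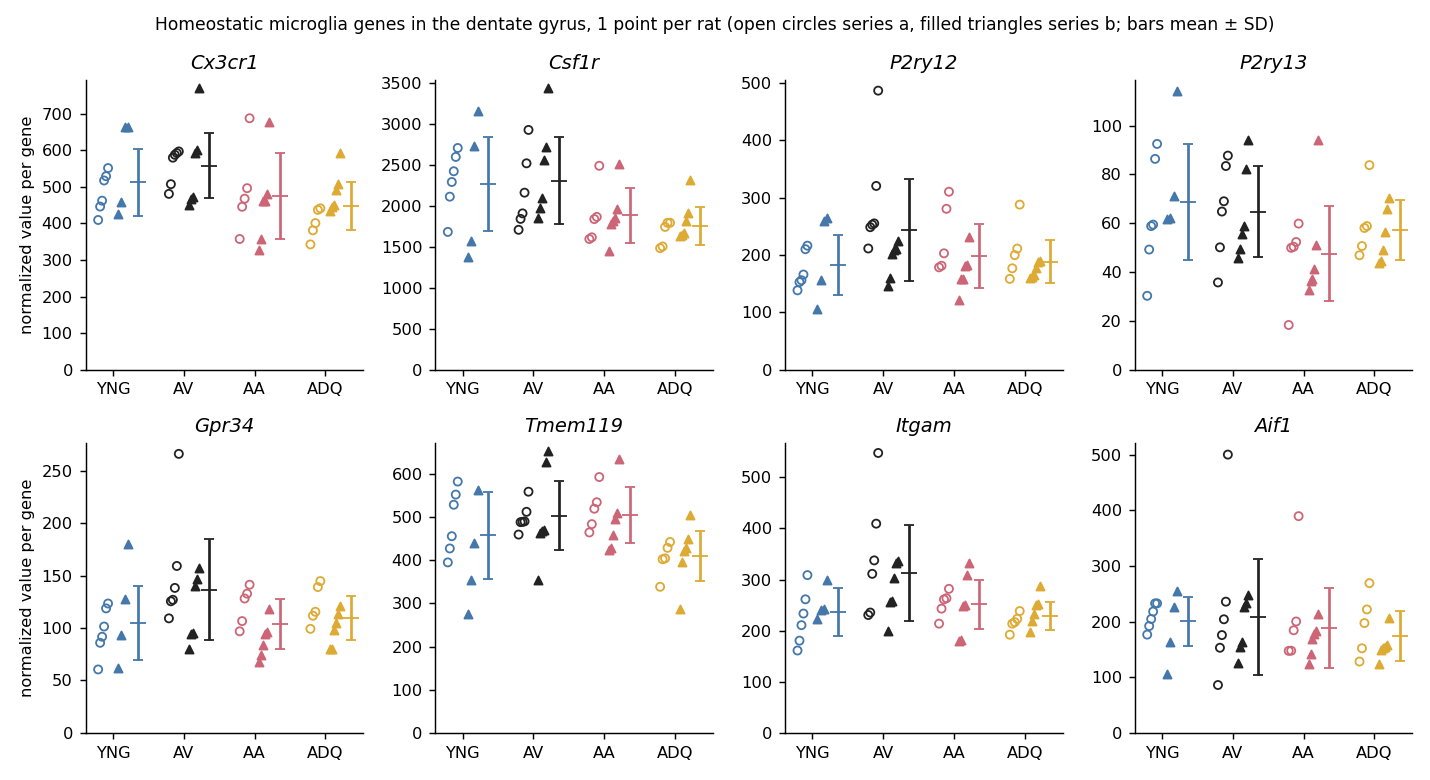
Normalized value of each homeostatic microglia gene (vertical axes, starting at 0) in each of 44 rats by group, with open circles for series a, filled triangles for series b and bars for the mean ± SD. The 4 groups overlap in every panel, and AV rat 3989 is the open circle far above the other AV rats for P2ry12 (487), Gpr34 (266) and Aif1 (500).

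Cx3cr1, Csf1r and Itgam were lower than in AV under both treatments, and the DNA before their start sites is shown for that reason. The 250 bases come from RefSeq promoters on the GRCr8 build, a later build than the rn6 build to which the reads were aligned, and run 5′ to 3′ on the strand of the gene. Capitals mark GAGGAA or its complement TTCCTC, the core letters that the myeloid factor PU.1 (Spi1) is known to bind. Cx3cr1 lies at chr8:128677067-128677316 (minus strand), Csf1r at chr18:56834129-56834378 (plus strand) and Itgam at chr1:192089342-192089591 (plus strand).
Cx3cr1: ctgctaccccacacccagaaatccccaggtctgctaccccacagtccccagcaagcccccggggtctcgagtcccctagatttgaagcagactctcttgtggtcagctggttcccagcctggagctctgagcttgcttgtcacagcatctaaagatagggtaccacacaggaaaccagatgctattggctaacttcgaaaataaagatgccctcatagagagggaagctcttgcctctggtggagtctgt
Csf1r: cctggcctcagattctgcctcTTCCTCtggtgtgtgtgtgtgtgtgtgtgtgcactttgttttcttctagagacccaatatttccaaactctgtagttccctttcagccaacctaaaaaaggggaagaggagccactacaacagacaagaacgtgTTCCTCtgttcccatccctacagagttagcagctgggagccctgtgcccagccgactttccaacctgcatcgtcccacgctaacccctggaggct
Itgam: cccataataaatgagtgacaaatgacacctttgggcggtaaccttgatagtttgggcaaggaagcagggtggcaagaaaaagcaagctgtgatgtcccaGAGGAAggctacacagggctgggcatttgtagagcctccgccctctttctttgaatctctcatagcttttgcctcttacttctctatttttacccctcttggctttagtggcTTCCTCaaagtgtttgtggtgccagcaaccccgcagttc
The letters occur at 2 places in Csf1r, beginning 229 and 95 bases before the start, at 2 places in Itgam, 151 and 39 bases before it, and nowhere in this window of Cx3cr1. RefSeq promoters were matched for 5 of the 8 genes, and 3 of those 5 hold the letters on either strand (Gpr34 is the other one), against 23.3% of 33469 promoter windows of the same length. The letters were chosen with the sequences in view, and a match is a description and not a binding site. Spi1 itself averaged 61.0 normalized values and was not called in any comparison (AV against YNG log2 0.16 ± 0.19 (SE), limma p = 0.408, adjusted p = 0.649); it was singled out after its values were seen.

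Cx3cr1 encodes the receptor through which microglia bind the neuronal chemokine fractalkine. Its normalized values ran from 409 to 664 in YNG (median 490), from 452 to 771 in AV (median 584), from 326 to 688 in AA (median 461) and from 343 to 593 in ADQ (median 441). In all, 8 of 11 ADQ rats and 4 of 11 AA rats lay below the lowest AV rat, while 1 ADQ rat and 2 AA rats lay above the AV median. AV rat 4572, at 771, was the highest of all. The level differed from YNG to AV by log2 0.13 ± 0.11 (SE; limma p = 0.262, adjusted p = 0.518). It was lower in ADQ than in AV by log2 -0.32 ± 0.11 (p = 0.00516, adjusted p = 0.332) and lower in AA than in AV by log2 -0.26 ± 0.11 (p = 0.0212, adjusted p = 0.999), a call lost without AV rat 4572 (p = 0.0512) or AA rat 4036 (p = 0.0585). Its ligand Cx3cl1 had group medians between 8660 (ADQ) and 8857 (AA), and differed by log2 -0.07 in AV against YNG, 0.05 in AA against AV and -0.004 in ADQ against AV, none of them called (p = 0.331, 0.457 and 0.957).

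Csf1r encodes the receptor tyrosine kinase on which microglial survival depends. Its values ran from 1381 to 3154 in YNG (median 2357), from 1708 to 3439 in AV (median 2126), from 1450 to 2507 in AA (median 1839) and from 1484 to 2313 in ADQ (median 1743). YNG and AV covered nearly the same range, and 5 of 12 AV rats lay above the highest AA rat and 5 above the highest ADQ rat. The difference of AV from YNG was log2 0.04 ± 0.12 (SE; limma p = 0.744, adjusted p = 0.873). ADQ was lower than AV by log2 -0.37 ± 0.12 (p = 0.00264, adjusted p = 0.266), and AA was lower than AV by log2 -0.28 ± 0.12 (p = 0.0225, adjusted p = 0.999), which had p = 0.0579 without AV rat 4572. Csf1r was also the 1 member called in ADQ against YNG, at log2 -0.33 ± 0.12 (p = 0.00926, adjusted p = 0.075). Among the 8 genes it followed the total of all normalized values of a library most closely, with r = 0.75 (rho = 0.74) over 44 rats after the group means were subtracted, against 0.16 to 0.50 for the others. That total was higher in YNG (median 16660960) than in AV (15537154), AA (15470836) and ADQ (15376067), and with the log2 total as a covariate ADQ against YNG was log2 -0.03 (p = 0.73), while AV against YNG became log2 0.26 (p = 0.00483). The calls against AV held in that fit, at log2 -0.29 for ADQ and log2 -0.18 (p = 0.0334) for AA. After scaling every library to the same total, ADQ against YNG had p = 0.053.

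Of the ligands of this receptor, Csf1 moved and Il34 did not pass the test. Csf1 ran from 407 to 524 in YNG (median 443), from 374 to 605 in AV (median 544), from 409 to 563 in AA (median 486) and from 403 to 516 in ADQ (median 454). It was higher in AV than in YNG by log2 0.23 ± 0.07 (SE; limma p = 0.00169, adjusted p = 0.061) and lower in ADQ than in AV by log2 -0.22 ± 0.07 (p = 0.00185, adjusted p = 0.238), while AA against AV was log2 -0.09 (p = 0.181). Il34 had medians of 351, 327, 360 and 410 in YNG, AV, AA and ADQ, with p = 0.837 for AV against YNG, 0.852 for AA against AV and 0.388 for ADQ against AV.

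P2ry12 encodes the ADP receptor by which microglial processes find sites of injury. Values ran from 106 to 264 in YNG (median 161), from 145 to 487 in AV (median 218), from 121 to 310 in AA (median 181) and from 158 to 288 in ADQ (median 177). Of the AV rats, 10 of 12 lay above the YNG median, and 10 of 11 ADQ rats lay below the AV median. AV was higher than YNG by log2 0.40 ± 0.16 (SE; limma p = 0.016, adjusted p = 0.147). ADQ was lower than AV by log2 -0.32 ± 0.16 (p = 0.0452, adjusted p = 0.525), and AA against AV was log2 -0.27 ± 0.16 (p = 0.0873, adjusted p = 0.999). Without AV rats 3989 and 4009 the difference of AV from YNG was log2 0.28 (p = 0.0711) and that of ADQ from AV log2 -0.20 (p = 0.181). The call of ADQ against AV also failed when any of 13 single rats was dropped (highest p 0.127, without 3989), after scaling to the same total (p = 0.0667), with array weights (p = 0.0584) and with the log2 total as a covariate (p = 0.0713). That of AV against YNG failed with array weights, which give less weight to more variable libraries (p = 0.0594).

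P2ry13, a related ADP receptor, was the member with the fewest reads. It ran from 30.2 to 114 in YNG (median 61.9), from 35.7 to 94.1 in AV (median 61.9), from 18.3 to 94.1 in AA (median 49.9) and from 43.6 to 83.8 in ADQ (median 56.3). YNG and AV had nearly the same median, and 10 of 11 AA rats lay below the AV median, with rat 4107 alone at the top of the AA group. AA was lower than AV by log2 -0.48 ± 0.19 (SE; limma p = 0.0149, adjusted p = 0.999) and lower than YNG by log2 -0.54 ± 0.20 (p = 0.00965, adjusted p = 0.085), which made it the 1 member called in AA against YNG. Without AA rat 3988 the first of these had p = 0.0511, and with the log2 total as a covariate the second had p = 0.128. The difference of ADQ from AV was log2 -0.15 ± 0.19 (p = 0.432, adjusted p = 0.842) and that of AV from YNG log2 -0.06 ± 0.20 (p = 0.773, adjusted p = 0.887).

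Gpr34 encodes a receptor for lysophosphatidylserine. Values ran from 60.5 to 180 in YNG (median 97.3), from 80.2 to 266 in AV (median 133), from 67.3 to 141 in AA (median 96.9) and from 79.5 to 145 in ADQ (median 112). Of the AV rats, 9 of 12 lay above the YNG median, and 4 AV rats lay above every treated rat of either group. AV was higher than YNG by log2 0.38 ± 0.17 (SE; limma p = 0.0244, adjusted p = 0.172), and AA was lower than AV by log2 -0.36 ± 0.16 (p = 0.0297, adjusted p = 0.999). ADQ against AV was log2 -0.27 ± 0.16 (p = 0.104, adjusted p = 0.647). Without AV rats 3989 and 4009 neither call held, at log2 0.29 (p = 0.0818) and log2 -0.26 (p = 0.101). Leaving out V3, V11 or 3989 alone ended the first (p = 0.0667 to 0.0701), and leaving out 3989, 4036 or 4070 the second (p = 0.0598 to 0.0829). With array weights the values were p = 0.245 and p = 0.108, the first had p = 0.0651 by permutation and p = 0.052 in a fit of YNG and AV only, and the second p = 0.0544 with the log2 total as a covariate.

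Tmem119 encodes a membrane protein used to tell microglia from macrophages that enter the brain from blood. Values ran from 275 to 582 in YNG (median 448), from 354 to 652 in AV (median 488), from 423 to 634 in AA (median 494) and from 287 to 505 in ADQ (median 421). It was the 1 member that was called between the treated groups: every one of the 11 AA rats lay above the ADQ median and 5 lay above the highest ADQ rat. AA exceeded ADQ by log2 0.30 ± 0.10 (SE; limma p = 0.00574, adjusted p = 0.981). ADQ was lower than AV by log2 -0.29 ± 0.10 (p = 0.00624, adjusted p = 0.353), while AA differed from AV by log2 0.01, with a 95% confidence interval of -0.20 to 0.22 (p = 0.926). AV against YNG was log2 0.15 ± 0.10 (p = 0.149, adjusted p = 0.388).

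Itgam encodes the alpha chain of complement receptor 3 and is shared by microglia with other myeloid cells. Values ran from 161 to 309 in YNG (median 237), from 199 to 548 in AV (median 307), from 181 to 333 in AA (median 250) and from 192 to 288 in ADQ (median 223). Of the AV rats, 6 of 12 lay above the highest YNG rat, and all 11 ADQ rats lay below the AV median. AV was higher than YNG by log2 0.38 ± 0.13 (SE; limma p = 0.00446, adjusted p = 0.0917), the smallest p of the 8 genes in this comparison. ADQ was lower than AV by log2 -0.40 ± 0.12 (p = 0.00206, adjusted p = 0.238), the smallest p of the 8 there too, and AA was lower by log2 -0.29 ± 0.12 (p = 0.0244, adjusted p = 0.999). Without AV rats 3989 and 4009 the first 2 remained called, at log2 0.32 (p = 0.0186) and log2 -0.34 (p = 0.00994), and AA against AV was log2 -0.23 (p = 0.0814). The last was also lost without 3989, 3999, 4036 or 4069 alone (p = 0.0516 to 0.073), with array weights (p = 0.0647), after scaling to the same total (p = 0.0592), in a fit of AA and AV only (p = 0.0502), by permutation (p = 0.0584) and when the largest row of the gene replaced the sum (p = 0.0844).

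The beta chain that pairs with this subunit, Itgb2, differed by more than any member in AV against YNG and in ADQ against AV. It ran from 103 to 151 in YNG (median 127), from 141 to 427 in AV (median 205), from 122 to 189 in AA (median 160) and from 126 to 191 in ADQ (median 154). AV exceeded YNG by log2 0.80 ± 0.13 (SE; limma p = 2.56e-07, adjusted p = 0.000307). Both treated groups were lower than AV, AA by log2 -0.49 ± 0.13 (p = 0.000416, adjusted p = 0.733) and ADQ by log2 -0.53 ± 0.13 (p = 0.00016, adjusted p = 0.134).

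Aif1 encodes Iba-1, the calcium-binding protein that is stained to show microglia in sections. Values ran from 105 to 256 in YNG (median 211), from 86.1 to 500 in AV (median 190), from 125 to 390 in AA (median 178) and from 124 to 269 in ADQ (median 155). AV held both the lowest rat of all (4009) and the highest (3989), and its coefficient of variation, 49.9%, was the largest of any member in any group. Aif1 was not called in any comparison as fitted here. With array weights it was lower in AV than in YNG (log2 -0.30, limma p = 0.0464). That fit called 7694 of 15598 genes in this comparison, against 3326 without the weights, so the call is no more than the background. As fitted here, the differences of Aif1 were log2 -0.03 ± 0.19 (SE; limma p = 0.856) for AV against YNG, -0.08 ± 0.19 (p = 0.668) for AA against AV and -0.17 ± 0.19 (p = 0.358) for ADQ against AV. In the table, 3 rows belong to this gene and were summed, and the largest of them held 81.0% of its values.

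Counted over the 8 genes, AV against YNG gave 3 higher and 0 lower, in a comparison where 21.3% of all genes tested were called, 10.6% were called higher and 2.35% passed after adjustment. The median difference of the 8 was log2 0.14, beside -0.002 over all genes. Higher genes made up 49.6% of all calls as deposited and 81.1% after scaling every library to the same total, which brought the median of all genes to log2 0.10 and that of the 8 to 0.24. After that scaling Cx3cr1 (log2 0.23, p = 0.0254) and Tmem119 (log2 0.26, p = 0.0112) were called higher as well. The same scaling brought the median of all genes to log2 0.15 in AA, 0.14 in ADQ and 0.13 in the pooled older rats against YNG, and the share of higher genes among all calls from 47.2% to 85.3%, from 48% to 82.6% and from 48.4% to 83%. AA against YNG gave 0 higher and 1 lower where 26.6% of genes were called, 14.1% were called lower and 3.85% passed after adjustment. ADQ against YNG gave 0 higher and 1 lower where the shares were 28.1%, 14.6% and 7.08%. In both, 0 of 8 passed after adjustment, and a share of 1 in 8 is below the share of all genes called. With the 3 older groups pooled against YNG, 0 of 8 were called at the unadjusted threshold of limma and 0 after adjustment, where 32.4% of all genes were called and 14.9% passed after adjustment.

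Against AV, AA gave 0 higher and 5 lower where 4.51% of all genes were called and 3.1% were called lower, with a median of log2 -0.27 over the 8. ADQ against AV gave 0 higher and 5 lower where 9.32% were called and 5.9% were called lower, with all 8 differences below 0 and a median of log2 -0.30. The median over all genes was 0.001 in the first and 0.01 in the second, and the share of higher genes among all calls went from 31.2% to 52.6% in the first and from 36.7% to 47.8% in the second after scaling to the same total, where the medians of the 8 were log2 -0.23 and -0.27. AA against ADQ gave 1 higher and 0 lower where 4.53% were called and 2.13% were called higher, with 47% of all calls higher as deposited and 61.8% after that scaling. In these 3 comparisons among older groups 0% of all genes passed after adjustment by limma. The comparisons of AV with YNG and of treated rats with AV share the AV rats, so their values stand side by side and are not independent of each other. Without AV rats 3989 and 4009 the counts were 1 higher in AV against YNG, 2 lower in AA against AV and 4 lower in ADQ against AV. The share of all genes called in that fit is not given here. These counts, and those of other lists without the 2 rats, therefore stand without a background.

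**Figure D2:**
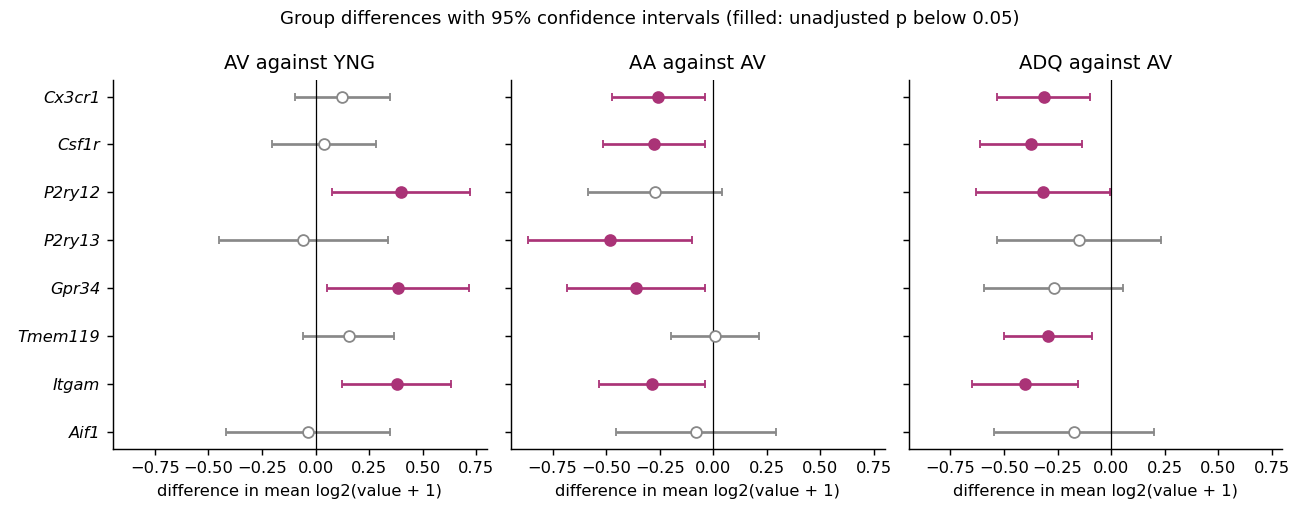
Difference in mean log2(value + 1) for each gene (horizontal axis, with 95% confidence intervals) in 3 comparisons, filled where the unadjusted limma p is below 0.05. In all, 3 genes are filled to the right of 0 in AV against YNG, and 5 are filled to the left of 0 in each comparison of treated rats with AV.

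The difference between AV and YNG was also taken within each of the 2 series of rats. Within series a, P2ry12 was higher in AV by log2 0.73 ± 0.19 (SE; limma p = 0.000912, adjusted p = 0.0125), Gpr34 by log2 0.64 ± 0.20 (p = 0.00342, adjusted p = 0.0271) and Itgam by log2 0.58 ± 0.18 (p = 0.00377, adjusted p = 0.0286), in a fit where 33.4% of all genes were called. Within series b the same genes differed by log2 0.04, 0.10 and 0.14 (p = 0.83, 0.697 and 0.413), no member was called and 6.31% of all genes were. For P2ry12 the test of the difference between the series gave log2 -0.69 ± 0.29 for b minus a (p = 0.0223, adjusted p = 0.152), in a test that called 21.8% of all genes. It was the 1 of the 8 members called there, a share below that background. For Gpr34 and Itgam the same test gave p = 0.0938 and 0.0988.

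P2ry12 had the higher median in series a in AV and in series b in YNG, and differences between series within a group were not tested. It ran from 211 to 487 in the 6 AV rats of series a (median 254) and from 145 to 225 in the 6 of series b (median 205). In YNG it ran from 138 to 216 (median 161) in series a and from 106 to 264 (median 208) in the 4 rats of series b. For ADQ against AV, Csf1r was the 1 member called in both series, at log2 -0.37 (p = 0.0179) and -0.39 (p = 0.0421). Cx3cr1, P2ry12, Tmem119 and Itgam were called in series a only, where log2 was -0.48, -0.49, -0.31 and -0.61, and had log2 -0.18, -0.13, -0.28 and -0.21 in series b. In these fits 5.67% of all genes were called in series a and 9.74% in series b. The test of the difference between the series gave p = 0.12 or more for each of the 8 in that comparison (4.03% of all genes called), and p = 0.408 or more for AA against AV (4.71%). For AA against AV no member was called within series a or b, and the 5 genes called over all rats had log2 of -0.20 to -0.53 in the former, where 3.85% of all genes were called, and -0.18 to -0.44 in the latter, where 4.21% were.

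**Figure D3:**
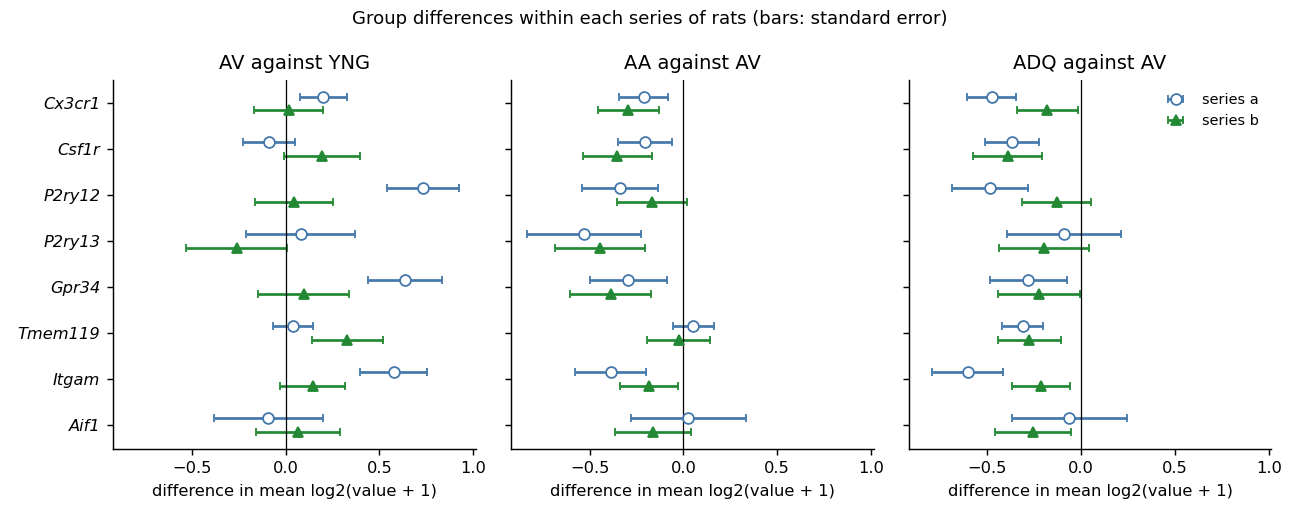
Difference in mean log2(value + 1) within series a (open circles) and series b (filled triangles) for each gene in 3 comparisons, with bars for the standard error. P2ry12, Gpr34 and Itgam lie at 0.73, 0.64 and 0.58 in series a and near 0 in series b for AV against YNG, while Csf1r lies below 0 in both series for ADQ against AV.

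From rat to rat the 8 genes varied together. After the group means were subtracted, all 28 pairs had a positive Pearson r over the 44 rats, from 0.19 (Aif1 with Itgam) to 0.70 (Csf1r with Tmem119), with a median of 0.43. By permutation within groups and adjustment over the 28 pairs, 19 pairs passed by Pearson's r and 22 by Spearman's rho. The closest pairs were Csf1r with Tmem119 (r = 0.70, rho = 0.69, adjusted permutation p = 0.00019), Csf1r with Cx3cr1 (r = 0.70, rho = 0.67, adjusted permutation p = 0.00019) and P2ry12 with Gpr34 (r = 0.69, rho = 0.58, adjusted permutation p = 0.00019). Without the 2 rats farthest from the median for each pair, all 28 stayed positive and the median r was 0.37. After scaling to the same total all 28 were positive, with a median r of 0.35 and a lowest of 0.08. No r for pairs of genes outside the set is given here, so this is not shown to be particular to the 8. Within series a, 26 of 28 were positive with a median of 0.40, and within series b all 28 were with a median of 0.63. Csf1r had the highest median r with the other members, 0.53, and Itgam the lowest, 0.30.

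In some rats most of the set lay high or low at once. The mean log2 distance of the 8 genes from the group mean was 0.60 in AV rat 3989, 0.49 in YNG rat V12, 0.45 in AA rat 3985 and 0.39 in AA rat 4107. All 8 genes lay above the group median in V12, and 7 of 8 in each of the other 3. At the other end were AV rat 4566 at -0.38, AA rat 4069 at -0.37 and YNG rat V10 at -0.36, and in each of these 3 rats 0 of the 8 genes lay above the group median. V12 held the highest YNG value for 6 of the 8 genes, and AV rat 4572 the highest AV value for 4. Coefficients of variation over the 8 genes ran from 11.9% to 25.6% in ADQ, from 12.9% to 40.6% in AA, from 15.9% to 49.9% in AV and from 17.8% to 34.6% in YNG. ADQ had the lowest of the 4 groups for 6 genes, AA for Tmem119 and YNG for Aif1.

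**Figure D4:**
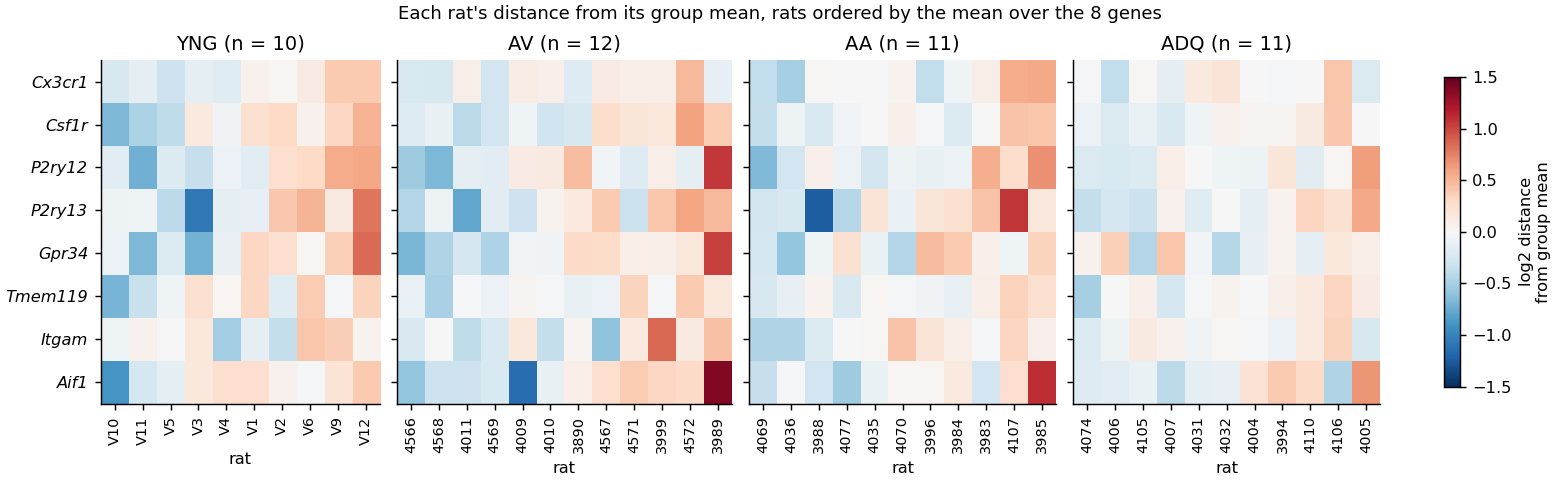
Log2 distance of each gene (rows) in each rat (columns) from the mean of its group, in red where higher and blue where lower, with rats ordered within a group by the mean over the 8 genes. The columns of rats 3989, V12, 3985 and 4107 are mostly red, and those of 4566, 4069 and V10 mostly blue.

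The transcripts whose pattern was most like the mean of the 8 genes belonged to none of the lists used here. Among 13696 other genes with a mean of at least 20, the highest r over 44 rats with group means subtracted belonged to Fam107a (0.85), Olfml1 (0.84), Tmem176a (0.83), Tmem176b (0.83), Gstt3 (0.83), Ndrg2 (0.82), Vsir (0.82) and Niban2 (0.82). Taken in one series at a time, r lay between 0.67 and 0.87 for a and between 0.85 and 0.94 for b. All points share the library of the rat, and the r of the members' mean with the log2 total of normalized values was 0.53 and with the log2 number of estimated reads 0.45.

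Lists of genes that belong with the 8 were counted in the same fit. Of all genes, 21.3% were called in AV against YNG (10.6% higher), 9.32% in ADQ against AV (5.9% lower) and 4.51% in AA against AV (3.1% lower). Counts of this list and of the lists below stand beside these shares. Of 31 other microglia genes tested, AV had 18 higher than YNG and 1 lower (Rgs10), with a median of log2 0.33. They included Ptprc, the CD45 phosphatase of all leukocytes, at log2 1.49 ± 0.30 (SE; limma p = 9.91e-06, adjusted p = 0.00359), the ATP-gated channel P2rx7 at log2 0.84 ± 0.18 (p = 3.41e-05, adjusted p = 0.00692) and the signaling adaptor Tyrobp at log2 0.62 ± 0.17 (p = 0.000529, adjusted p = 0.033). In ADQ against AV, 0 were higher and 17 lower, among them Unc93b1, which carries Toll-like receptors to endosomes, at log2 -0.43 ± 0.13 (p = 0.00203, adjusted p = 0.238), and the lysosomal protein Laptm5 at log2 -0.50 ± 0.16 (p = 0.00307, adjusted p = 0.266). In AA against AV, 0 were higher and 5 lower, with Ptprc at log2 -0.81 ± 0.29 (p = 0.00804) and the phospholipase Plcg2 at log2 -0.34 ± 0.15 (p = 0.0244). With rats 3989 and 4009 left out, 11 were higher and 0 lower in AV against YNG, 10 were lower in ADQ than in AV, and for AA against AV the count was 0 at the unadjusted or the adjusted threshold of limma, where the list had a median of log2 -0.09. The list's mean followed that of the 8 genes from rat to rat with r = 0.73 (rho = 0.68).

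Of 17 activated microglia genes tested (7 more had a mean below 5), AV had 6 higher than YNG and 1 lower. Fcgr2b, an inhibitory receptor for antibodies, was higher by log2 1.13 ± 0.16 (SE; limma p = 3.79e-09, adjusted p = 1.18e-05), and reached 96.1 in YNG, where AV ran from 94.8 to 328. Cd74, the invariant chain of antigen presentation, was higher by log2 2.18 ± 0.45 (p = 1.71e-05, adjusted p = 0.00504) and Gpnmb, a glycoprotein of lipid-laden macrophages, by log2 0.80 ± 0.17 (p = 2.82e-05, adjusted p = 0.0062). The 1 lower gene was Apoe (log2 -0.33), a lipid carrier that astrocytes also make. In ADQ against AV, 1 was higher (Lpl, a lipase) and 6 lower, with Gpnmb at log2 -0.62 ± 0.17 (p = 0.000633) and the lectin Lgals3 at log2 -1.16 ± 0.35 (p = 0.002). In AA against AV, 0 were higher and 4 lower, again with Gpnmb (log2 -0.71 ± 0.17, p = 0.000118, adjusted p = 0.526) and Lgals3 (log2 -1.11 ± 0.35, p = 0.003) at the smallest p. Leaving out rats 3989 and 4009 gave 6 higher and 1 lower in AV against YNG, and relative to AV 0 higher and 3 lower in ADQ and 2 lower in AA.

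Of 10 microglial transcription factors, AV had 4 higher than YNG and 0 lower. Sall1, a factor of microglial identity, was higher by log2 0.61 ± 0.12 (SE; limma p = 7.96e-06, adjusted p = 0.00327) and Runx1 by log2 0.59 ± 0.25 (p = 0.0226). None was called in ADQ against AV, where the count after adjustment was 0 as well, and 1 was lower in AA against AV (Ikzf1, a lymphoid and myeloid factor, log2 -0.41 ± 0.18, p = 0.0261). Of 12 ligands and partners, Cx3cl1, Csf1, Il34 and Itgb2 among them, AV had 5 higher than YNG and 0 lower, AA had 0 higher than AV and 3 lower, and ADQ had 0 higher than AV and 5 lower. Tgfb1, a cytokine that keeps microglia in their surveying state, was lower in AA by log2 -0.49 ± 0.17 (p = 0.0066) and in ADQ by log2 -0.53 ± 0.17 (p = 0.00389). When rats 3989 and 4009 were left out, 4 transcription factors and 4 ligands and partners were higher in AV than in YNG, 2 ligands and partners were lower in AA and 3 in ADQ than in AV, and no transcription factor was called against AV at the unadjusted or the adjusted threshold of limma.

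Markers of other cells were counted in the same comparisons, where 21.3% (AV against YNG), 9.32% (ADQ against AV) and 4.51% (AA against AV) of all genes were called. In lists this short a count of 1 is not read as a change of the list. In AV against YNG, 4 of 4 endothelial, 5 of 6 oligodendrocyte, 3 of 4 T and NK cell, 2 of 6 astrocyte and 1 of 1 monocyte and neutrophil markers tested were higher, 1 of 5 granule neuron markers was lower, and none of the 5 border macrophage, 5 CA1 neuron, 3 choroid plexus, 5 meninges or 5 red blood cell markers was called at the unadjusted or the adjusted threshold. Of the T and NK cell markers, Cd8a had an AV median of 1.01 (highest 117) and Nkg7 of 0.50 (highest 214), and both had a YNG median of 0. Many AV rats were thus near 0 for these 2 genes, and a few lay far above. In ADQ against AV, 3 endothelial, 4 oligodendrocyte, 3 T and NK cell, 5 red blood cell, 1 astrocyte, 1 choroid plexus and 1 monocyte and neutrophil markers were lower, and in AA against AV 2, 0, 3, 1, 1, 0 and 1, with 1 meninges marker. Once rats 3989 and 4009 were left out, AV had 4 endothelial, 3 oligodendrocyte, 2 T and NK cell and 1 astrocyte markers higher than YNG. AV also had 1 monocyte and neutrophil marker higher and 1 granule neuron marker lower than YNG. In that fit 1 endothelial, 1 T and NK cell, 1 astrocyte and 1 monocyte and neutrophil marker were lower in ADQ than in AV. AA had 2 T and NK cell, 1 astrocyte, 1 monocyte and neutrophil and 1 meninges marker lower than AV. No oligodendrocyte or red blood cell marker was called against AV at the unadjusted or the adjusted threshold of limma. Summed endothelial markers ran from 1112 to 3878 in YNG, from 1932 to 7676 in AV, from 2014 to 3199 in AA and from 1991 to 2484 in ADQ. Summed oligodendrocyte markers ran from 42603 to 119472, 54748 to 174723, 53674 to 150631 and 60122 to 78331 in that order of groups.

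Rat by rat, the mean of the 8 genes followed that of red blood cell markers with r = 0.71 (rho = 0.66), of oligodendrocyte markers with r = 0.64 (rho = 0.65) and of endothelial markers with r = 0.59 (rho = 0.39), and that of granule neuron markers with r = -0.44 (rho = -0.36). Markers of border macrophages, cells that share some of the 8 genes, had r = 0.20 (rho = 0.09), with 0.61 in series a and -0.15 in series b. Summed border macrophage markers were low in every group (at most 231, in AV rat 3989), and Pf4 and Siglec1 had means below 5. Of the monocyte and neutrophil markers 6 had means below 5, and Camp was at 0 in 31 of the 44 rats. The part of these cells in the differences of the 8 genes was not tested.

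**Figure D5:**
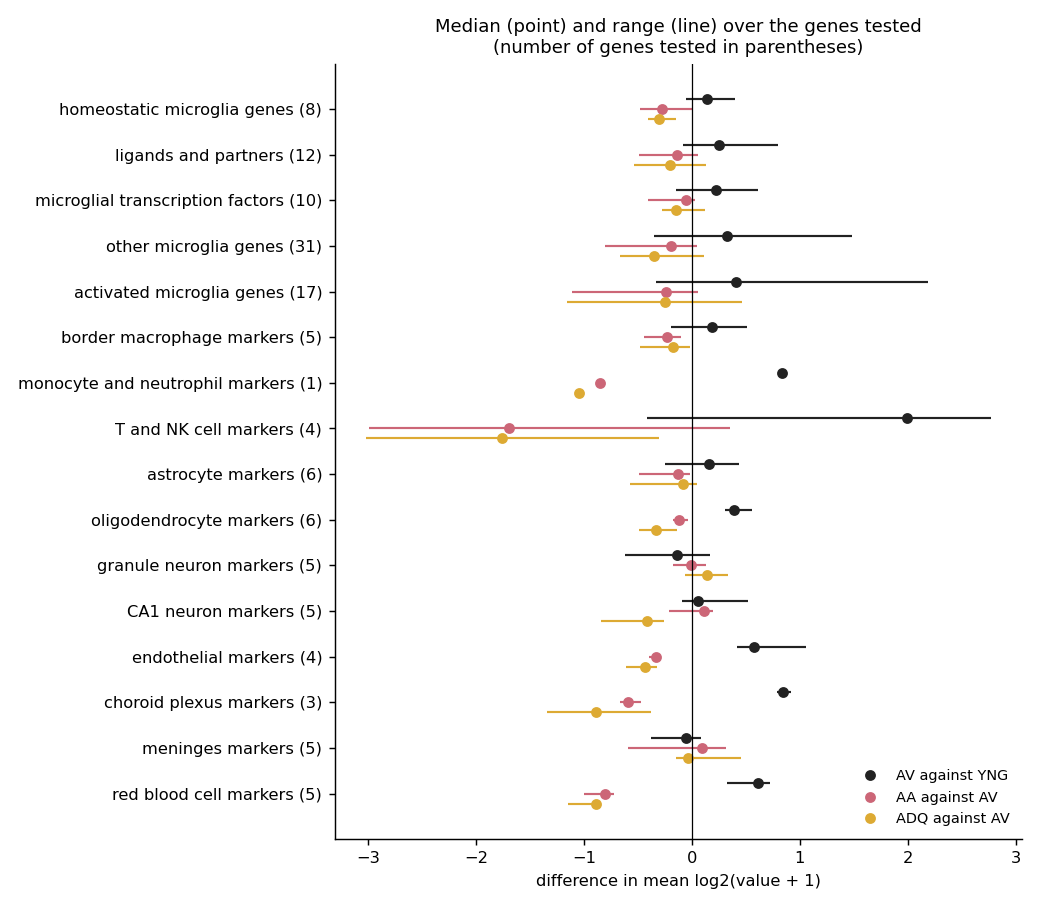
Median (point) and range (line) of the difference in mean log2(value + 1) over the genes tested of each list, in AV against YNG (black), AA against AV (red) and ADQ against AV (yellow). The homeostatic microglia genes lie at medians of 0.14, -0.27 and -0.30. The medians of every other list except granule neuron, CA1 neuron and meninges markers lie on the same side of 0 as these in each comparison.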

How the data were processed

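Per the study's methods and the submitters' processing notes, the authors aligned Ion platform reads to the rn6 build with STAR 2.5.3a in Partek, and tested with DESeq2, not run here. The annotation and counting model are not given in the sources used here. The deposited table holds signal values, estimated reads per row divided by a median-ratio size factor, in 24694 rows. Low values were whole multiples of a step for 78.0% to 83.0% of values per rat, so reads were estimated from that step, whole counts could not be recovered and no count model was used. All 44 columns were used. Label ages matched the attribute table for all 44 rats. The sequencer in the labels is not the one in the methods.

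Rows were summed per gene identifier. Genes with a mean of at least 5 (15598) were fitted with limma 3.58.1 in R 4.3.3 on log2(value + 1), with a trend, and 7 comparisons were made. Scripts were tested on simulated data. Permutations used 100000 resamples (numpy 2.4.6). Named genes are the 8 members, the smallest p values of each list (3 in AV against YNG, 2 in AA and in ADQ against AV), Cx3cl1, Csf1, Il34 and Itgb2, and the 8 genes most like the members' mean, while markers of other cells are given by count and range. One gene that the rule names is not reported here. Members and lists were chosen with earlier results of these data known. Genes named outside the rule were chosen after their values were seen. The alternatives tried were other pseudocounts, filters, scalings, tests, covariates and rows, each series and each rat left out.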

Additional observations from a re-analysis of the deposited data

Results flagged for a closer look

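The difference of P2ry12 between AV and YNG differed between the 2 series of rats. The test of the difference itself, an interaction term in limma, gave log2 -0.69 for series b minus series a (p = 0.0223, adjusted p = 0.152), with AV higher than YNG by log2 0.73 in series a and by 0.04 in series b. It was the 1 of 24 such terms with an unadjusted p below 0.05, over the 8 genes and 3 comparisons. In AV against YNG 21.8% of all genes had such a term, so that 1 of 8 members was below the background. The term was log2 -0.43 for Itgam (p = 0.0988) and log2 -0.54 for Gpr34 (p = 0.0938). The series differ in the rats and possibly in the libraries, which cannot be told apart. Dixon's limit for single rats was applied in YNG only (n = 10), where none of the 8 genes had a rat outside it, and AV, AA and ADQ, with 11 or 12 rats each, were not tested.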

How the results depend on the processing

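No paired analysis was possible because the labels give no replicate numbers that tie rats of different groups. Counts of members called stayed within 1.5 times of the reported ones with other pseudocounts, other filters, upper quartile scaling, robust moderation, the largest row of a gene, permutation, fits of the compared groups and series as a term. They did not in the following, and the cause was not tested. Scaling to the same total gave 5 for AV against YNG, 2 for AA against YNG (1 higher, 1 lower), 0 for ADQ against YNG, 4 for the older rats (all higher) and 2 for the difference between series. Of all 15598 genes, 3474, 5174, 5223 and 5966 were called in the first 4 of these. Array weights gave 3 for AA against YNG, 3 for ADQ against YNG and 4 for the older rats (1 higher, 3 lower). Of all 15598 genes, 7068, 8101 and 8660 were called there. With these weights AA against AV had 3 and AA against ADQ 2, 1 in each direction, where 921 and 1584 genes were called. AV against YNG had 1 higher and 1 lower, where 7694 genes were called. With the library total as a covariate AV against YNG had 6, ADQ against YNG 0 and the older rats 3 (all higher). In AA against YNG 1 member was called in that fit, and it was higher. It was not P2ry13, which stayed lower there at log2 -0.34 (limma p = 0.128). Of all genes, 1809, 1161, 1501 and 1202 were called, in that order of comparisons. Within series a AA against YNG had 0, ADQ against YNG 3, the older rats 3 (2 higher, 1 lower) and AA against AV 0. Of all genes, 4465, 4274, 5925 and 601 were called, in that order. Within series b AV against YNG, ADQ against YNG, AA against AV and AA against ADQ had 0, the older rats 1 and ADQ against AV 1, and the median r between members was 0.632. Of all genes, 984, 1077, 656, 648, 1375 and 1519 were called, in that order. Without AV rats 3989 and 4009 AV against YNG had 1 and AA against AV 2.

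Leaving out 1 rat at a time gave 1 to 2 for AA against YNG (2 without V5, V10, V11, 4572, 3985 or 4107), 1 to 2 for ADQ against YNG (2 without V10 or 4106), 0 to 1 for the older rats (1 without V3, V5, V10, V11 or 4572), 2 to 6 for AA against AV (2 without 4036, 3 without 3989 or 4572), 1 to 2 for AA against ADQ (2 without 4107) and 0 to 2 for the difference between series (0 without V9 or 3989, 2 without V6, V11, 4010 or 4011). The background moved as well. For AA against YNG, 3316 of all 15598 genes were called without V1 and 4691 without V10, beside 4153 with all rats. The other counts with 1 rat left out stand without a background. Directions turned for differences that were not called. For AV against YNG, Aif1 had log2 0.068 and P2ry13 0.044 after scaling to the same total, 0.16 and 0.083 with the covariate, P2ry13 had 0.081 and Csf1r -0.089 within series a, Aif1 had 0.068 within series b, and Csf1r had -0.15 with array weights. For AA against AV, Aif1 had log2 0.0089 with the covariate and 0.026 within series a, and Tmem119 -0.025 within series b. Leaving out 1 rat moved Aif1 between -0.16 and 0.069, Csf1r between -0.035 and 0.098 and P2ry13 between -0.18 and 0.033 in AV against YNG, and Aif1 between -0.19 and 0.046 and Tmem119 between -0.035 and 0.045 in AA against AV. P2ry13, with as few as 20 estimated reads in a rat, is the gene that depth limits most.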
